A study of Mus musculus with 5 samples.

Results

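DNA methylation at CG sites is written, copied and removed by a small set of enzymes, and 10 of their genes were followed across the libraries of this series: DNMT1, DNMT3A, DNMT3B, UHRF1, UHRF2, HELLS, TET1, TET2, TET3 and MBD2. They were chosen by symbol, as the target of azacytidine with its partners and opponents. Of the 10 genes, 9 had a row in all 3 tables used for levels, among 13979 symbols that these tables share. The remaining gene, TET1, had no row in the table with Control and PAZA.

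DNMT1 copies methylation onto the new strand after DNA replication, UHRF1 brings it to half-methylated CG sites, and HELLS remodels nucleosomes so that methylation can be laid down. DNMT3A and DNMT3B place methylation on unmethylated DNA, the TET enzymes oxidise 5-methylcytosine as a step of its removal, and MBD2 reads methylated DNA within the NuRD repressor complex. Azacytidine is a cytidine analogue that, once in DNA, traps DNA methyltransferases as protein on the DNA, whereas the values here are mRNA levels.

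RNA was sequenced from Lewis lung carcinoma (LLC) of the mouse in 5 groups, each with a single library. They were Control, BMN (the PARP inhibitor BMN673), PAZA (a polymer carrier to which azacytidine is conjugated) and BMN given with PAZA at a low and at a high dose, called BMN/PAZA low dose and BMN/PAZA high dose. The treatment labels attach the dose to BMN and the titles to the combination, and no label gives an amount of PAZA. By the text of the study, BMN and azacytidine had equal dosages within a combination, so both were higher at the high dose. By the labels the LLC cells were treated for 72 h in a culture medium, whereas the methods of the study describe tumors collected one day after the last treatment of mice. Macrophage markers were present in every library, at a sum of 319 to 459 over 6 genes. The values are therefore read here as those of a mixture of cell types, as in tumor tissue. No genotype, age or allele is labelled. With 1 library per group no difference has a replicate check, and no p-value is given. A value here is FPKM scaled to a sum of 1e+06 over the 13979 shared symbols, and a fold change is on the log2(value + 1) scale. A symbol was counted as higher or lower when it differed by at least 1.5-fold, among 11214 symbols with a mean of at least 1. Of the 10 genes, 8 were among those 11214. TET1 was outside the shared symbols, and DNMT3B had a mean under 1. They are given as levels only.

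The libraries also differed in the levels of marker genes of other tissues. The summed level of 6 skeletal muscle markers was 12.2 in Control, 61.8 in PAZA, 190 in BMN, 11.2 in BMN/PAZA low dose and 212 in BMN/PAZA high dose. That of 5 epidermal keratin and envelope genes was 69.7, 8.0, 287, 2.99 and 13 in the same order, so it was lower in each of the 3 libraries with PAZA than in both without. That of 5 neutrophil markers was 72.8 in Control, 124 in PAZA, 64.6 in BMN, 122 in BMN/PAZA low dose and 233 in BMN/PAZA high dose, so it was higher in each library with PAZA than in both without and highest at the high dose. S100A8 and S100A9 made up most of it, while CSF3R (2.64 to 4.46) and CXCR2 (2.45 to 5.00) overlapped between libraries with and without PAZA. RETNLG was listed at 0 in Control and BMN and was at 0.609 to 1.18 in the 3 libraries with PAZA. The sum of 6 macrophage markers ranged from 319 to 459, that of 6 fibroblast markers from 308 to 804, and that of 5 LLC markers from 2482 to 2936. VIM, which is not particular to tumor cells, made up most of the LLC sum, at 2076 to 2470. That sum is therefore no measure of the share of tumor cells. Of 5 lung epithelial markers, SFTPC, SFTPB, SCGB1A1 and NKX2-1 had no row in all 3 tables, and EPCAM ranged from 0 to 3.30. In bulk samples, fewer cells of a type and less RNA per cell cannot be told apart. The values carry no read counts, so the depth behind them is not known here and counting error has no interval.

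The start regions of the maintenance genes are shown because DNMT1, UHRF1 and HELLS carry the contrast described next. Windows of 300 bases, from 250 before to 50 after each RefSeq start (GRCm38.p6), were searched on both strands for TTTCCCGC, TTTCGCGC, TTTGCCGC and TTTGGCGC, words bound by the E2F factors of S phase. Of 32851 windows in the mouse, 744 (2.26%) held such a word. Of 14 windows for 9 of the genes, 3 held one, and these belonged to DNMT1, UHRF1 and HELLS. Of 17 S phase genes with a window, 7 had a window with a match. The matching stretches are printed 5′ to 3′ on the gene's strand with the word in capitals, at chr9:20952826-20952853 (minus) and chr9:20952574-20952601 (minus) for DNMT1, chr17:56304117-56304144 (plus) for UHRF1 and chr19:38930917-38930944 (plus) for HELLS.
DNMT1 upstream: ggtttccgcgcGCGCGAAAaagccgggg
DNMT1 downstream: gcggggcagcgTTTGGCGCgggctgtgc
UHRF1: cccgagtcgggTTTCGCGCgcccaggcg
HELLS: gaccaccgggtTTTCCCGCgaaagagaa
The words began at −219 and 34 in the DNMT1 window, at −185 in that of UHRF1 and at −62 in that of HELLS, counted from the RefSeq start. The 3 windows held 33, 33 and 34 CG dinucleotides, against a median of 7 over all windows. The words themselves contain CG, and windows without a match held from 2 (another DNMT1 start) to 57 (TET2), with 12 at the other UHRF1 start and 46 and 47 at a pair of DNMT3A starts. A match is a description of these letters and no measure of binding, and methylation itself was not measured in this series.

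DNMT1, the maintenance methyltransferase and the main target of azacytidine in dividing cells, differed more between libraries than any other of the 8 genes past the filter. It lies on the minus strand of chromosome 9 from 20907209 to 20959888 (GRCm38, GENCODE M21). Its level was 155 in Control, 150.3 in BMN, 97.5 in PAZA, 78.8 in BMN/PAZA low dose and 52.7 in BMN/PAZA high dose. Both libraries without PAZA were thus close together and above all 3 with it, and the high dose was lowest. Its highest value was 2.94 times its lowest, against a median of 1.80 over the 11214 symbols, of which 83.1% had a spread no larger. With the largest mean among the 4 shared DNMT and TET genes with a mean over 1, DNMT1 stood at rank 1003 of the 13979 shared symbols.

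UHRF1, which recognises half-methylated DNA and recruits DNMT1, did not share that pattern. On the plus strand of chromosome 17 from 56303321 to 56323486, it had 81.2 in Control, 88.3 in PAZA, 97.5 in BMN, 71.0 in BMN/PAZA low dose and 75.2 in BMN/PAZA high dose. Libraries with and without PAZA overlapped, and the highest value was 1.37 times the lowest, a spread that 13.8% of the 11214 symbols did not exceed. Its relative UHRF2 (chromosome 19, 30030513 to 30093722, plus strand), which also binds modified DNA, was far lower, at 5.18 in Control, 6.05 in PAZA, 8.53 in BMN, 7.10 in BMN/PAZA low dose and 5.16 in BMN/PAZA high dose. UHRF2 was at 6.38% to 10.0% of UHRF1 in the 5 libraries, and its groups overlapped as well.

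HELLS, the remodeler also known as LSH, was the most abundant of the 10 genes per length. On the plus strand of chromosome 19 from 38930915 to 38971051, it had 261 in Control, 217 in PAZA, 314 in BMN, 180.1 in BMN/PAZA low dose and 182 in BMN/PAZA high dose. All 3 libraries with PAZA were below both without, and the low and high dose were nearly equal.

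**Figure D1:**
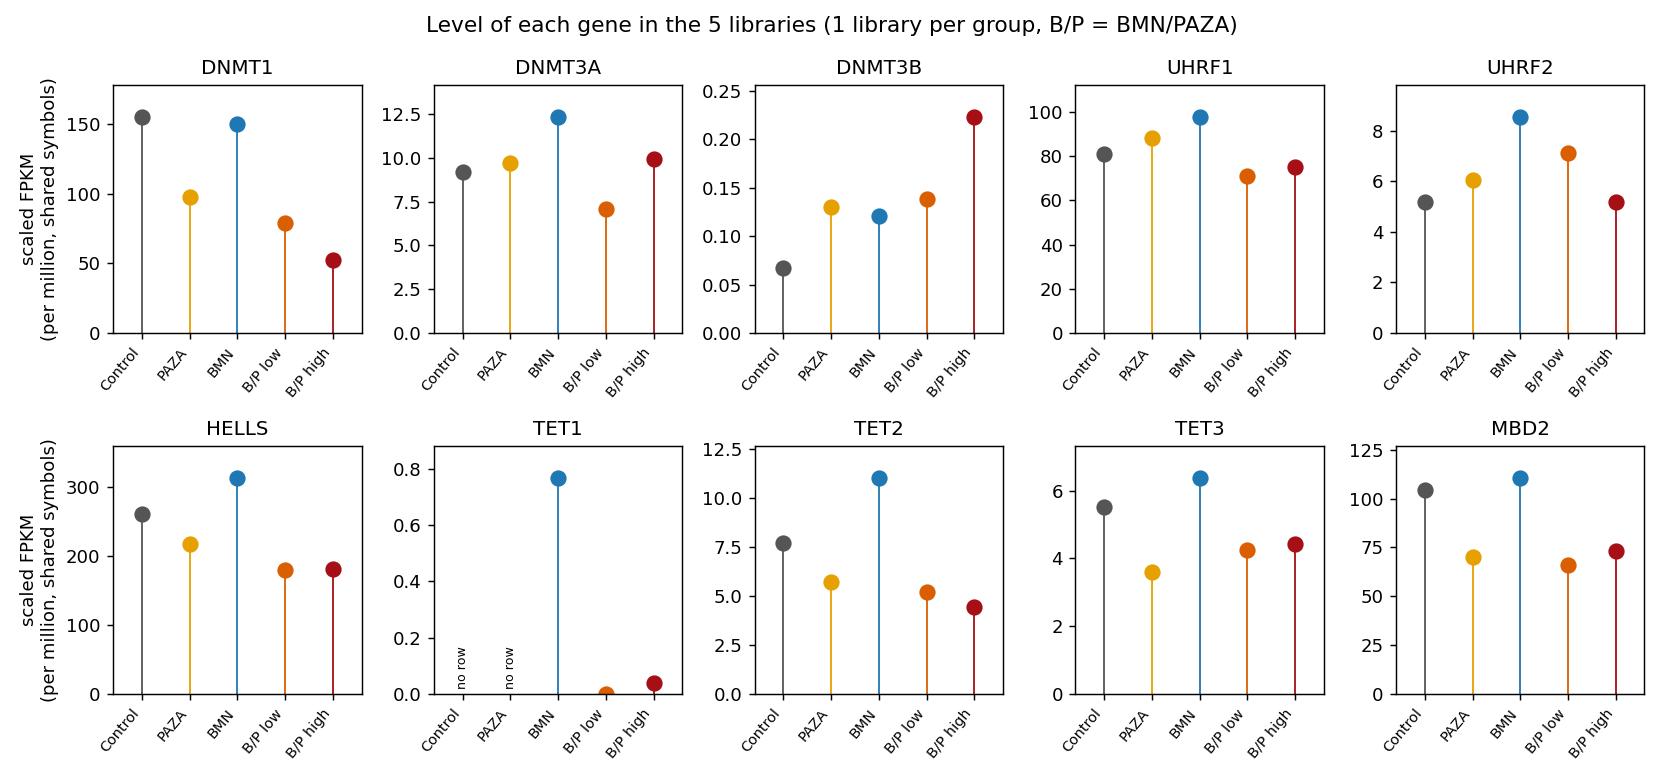
Level of each gene in the 5 libraries, as FPKM scaled to 1e+06 over the shared symbols, on a linear axis from 0 with its own range for each gene. Each point is 1 library, "no row" marks the 2 libraries whose table does not list TET1, and DNMT1 runs from 155 in Control to 52.7 in BMN/PAZA high dose while UHRF1 stays between 71.0 and 97.5.

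The de novo enzymes were low. DNMT3A, on chromosome 12 from 3806007 to 3914443, had 9.18 in Control, 9.69 in PAZA, 12.3 in BMN, 7.07 in BMN/PAZA low dose and 9.96 in BMN/PAZA high dose, and libraries with and without PAZA overlapped. DNMT3B, on chromosome 2 from 153649450 to 153687730, had 0.0666 in Control, 0.130 in PAZA, 0.120 in BMN, 0.138 in BMN/PAZA low dose and 0.223 in BMN/PAZA high dose, at most 2.23% of DNMT3A in any library. At such a level the differences of DNMT3B cannot be told from counting error, since the depth is unknown. Both genes overlap an annotated antisense transcript, Dnmt3aos and Dnmt3bos, and reads from the opposite strands cannot be told apart where the library does not mark strand, which the sources used here do not state.

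Of the oxidising enzymes, TET2 and TET3 were low in every library and TET1 was near 0. TET2 (chromosome 3, 133463679 to 133545139, minus strand) had 7.69 in Control, 5.73 in PAZA, 11 in BMN, 5.21 in BMN/PAZA low dose and 4.45 in BMN/PAZA high dose. TET3 (chromosome 6, 83362373 to 83459084, minus strand) had 5.5 in Control, 3.61 in PAZA, 6.37 in BMN, 4.25 in BMN/PAZA low dose and 4.43 in BMN/PAZA high dose. Both were lower in each library with PAZA than in both without it, and both were highest in BMN. TET1 (chromosome 10, 62804570 to 62908996, minus strand) was 0.768 in BMN and 0.0373 in BMN/PAZA high dose, and it was listed at 0 in BMN/PAZA low dose. TET2 and TET3 also overlap annotated antisense transcripts, Gm42567 and B230319C09Rik.

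The methyl-CG reader MBD2 was at 104 in Control, 70.0 in PAZA, 111 in BMN, 65.9 in BMN/PAZA low dose and 73.4 in BMN/PAZA high dose. Again all 3 libraries with PAZA were below both without. In the sum of DNMT1, DNMT3A and DNMT3B, DNMT1 made up most, and TET2 with TET3 came to 8.04% of that sum in Control, 8.70% in PAZA, 10.7% in BMN, 11% in BMN/PAZA low dose and 14.1% in BMN/PAZA high dose. TET1 was left out of this share because 2 of the libraries have no row for it, and with it BMN stood at 11.2%, above the low dose. The TETs were low beside the methyltransferases in each library. The percentage was highest where DNMT1 was lowest, but DNMT1 makes up most of the sum, so it rises by arithmetic when DNMT1 falls. TET2 and TET3 were not higher in BMN/PAZA high dose. They stood at 4.45 and 4.43 there, against 7.69 and 5.5 in Control.

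Ratios between genes within a library do not depend on how the libraries were scaled. The ratio of DNMT1 to UHRF1 was 1.91 in Control, 1.54 in BMN, 1.10 in PAZA, 1.11 in BMN/PAZA low dose and 0.70 in BMN/PAZA high dose. DNMT1 was therefore above UHRF1 per length in 4 libraries and below it in BMN/PAZA high dose. The ratio of HELLS to UHRF1 was 3.22 in Control and 3.21 in BMN, and 2.46, 2.54 and 2.42 in PAZA, BMN/PAZA low dose and BMN/PAZA high dose. It separated the same libraries by a smaller step and without an order by dose. DNMT1 was 16.9 times DNMT3A in Control, 12.2 times in BMN, 10.1 times in PAZA, 11.1 times in BMN/PAZA low dose and 5.28 times in BMN/PAZA high dose.

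DNMT1, UHRF1 and HELLS are transcribed most in cells that replicate their DNA, so each was also set against the geometric mean of S phase genes, among them the MCM helicase, CDC6 and RRM1. Of 20 such genes, TYMS, POLA1 and PRIM1 were left out because their values differed between tables of the same library. Against the remaining 17, UHRF1 was 2.26 in Control, 2.26 in PAZA, 2.40 in BMN, 2.22 in BMN/PAZA low dose and 2.38 in BMN/PAZA high dose. Its highest ratio was 1.08 times its lowest, and 18 of the 11214 symbols (0.161%) had a spread as small, UHRF1 included. With all 20 genes that spread was 1.13, which 43 symbols (0.383%) did not exceed. DNMT1 was 4.31 in Control, 3.69 in BMN, 2.50 in PAZA, 2.46 in BMN/PAZA low dose and 1.67 in BMN/PAZA high dose against the same 17 genes. In BMN/PAZA high dose it was 0.386 of its ratio in Control, whereas UHRF1 was 1.05 of it. HELLS was 7.27 in Control, 7.70 in BMN, 5.57 in PAZA, 5.63 in BMN/PAZA low dose and 5.75 in BMN/PAZA high dose, between the other two genes in how far the libraries with PAZA lay under Control. The geometric mean of the 17 genes itself ranged from 31.6 in BMN/PAZA high dose to 40.7 in BMN.

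**Figure D2:**
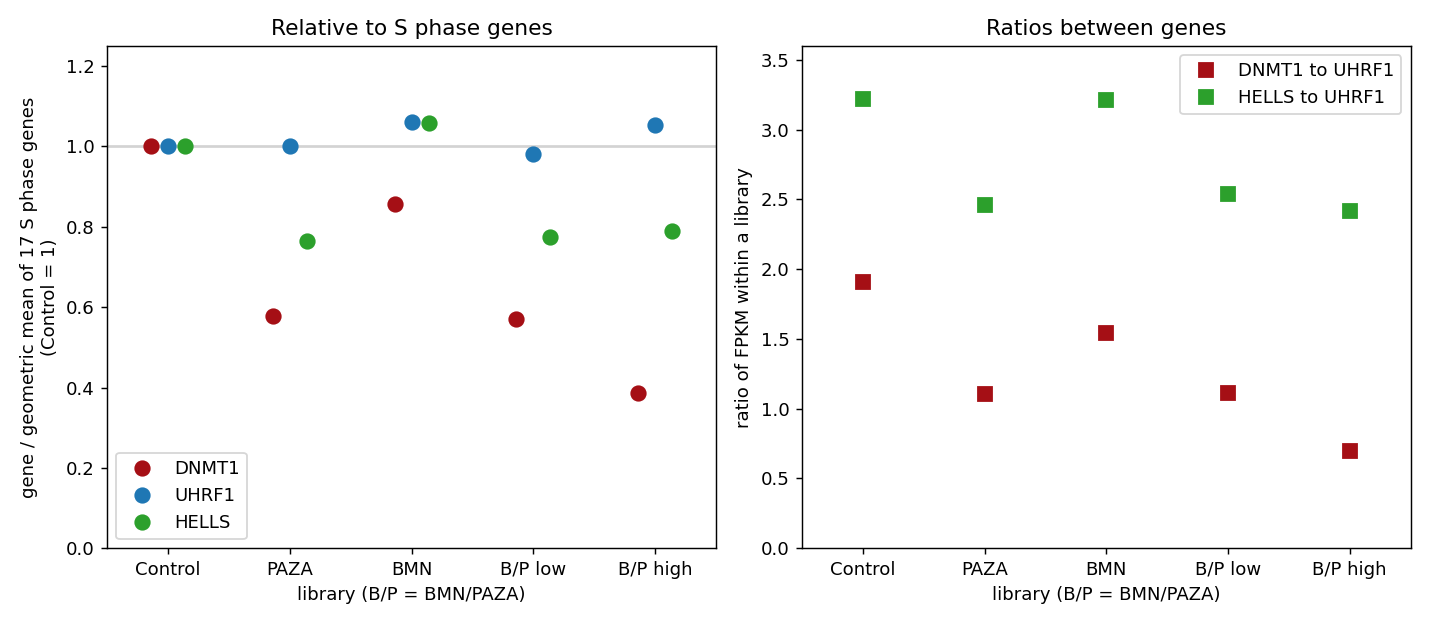
The first panel plots DNMT1, UHRF1 and HELLS divided by the geometric mean of 17 S phase genes, with Control set to 1, and the second panel plots the ratios of DNMT1 and of HELLS to UHRF1, both on linear axes from 0 with 1 point per library. UHRF1 lies between 0.982 and 1.06 of Control, HELLS at 0.765 to 0.791 in the 3 libraries with PAZA, and DNMT1 at 0.579, 0.571 and 0.386 in PAZA, BMN/PAZA low dose and BMN/PAZA high dose.

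PAZA against Control addresses the azacytidine carrier without BMN. DNMT1 was lower by 1.59-fold (log2 −0.66), and was the only one of the 8 genes past 1.5-fold. Over all symbols 15.6% were lower and 10.6% were higher by at least 1.5-fold, so 1 of 8 is near the background. The median of the 8 genes was −0.32, against −0.10 over all symbols. MBD2 was at −0.57, TET3 at −0.50, TET2 at −0.37 and HELLS at −0.26, while UHRF1 was at 0.12, UHRF2 at 0.19 and DNMT3A at 0.07. DNMT1 no longer passed 1.5-fold when libraries were scaled by the median ratio of all genes, at −0.56, or when the columns of 1 table were used as deposited, at −0.58, and its values over the alternatives ran from −0.83 to −0.56. In the other direction, 2 genes were lower with a pseudocount of 0.1 and 3 relative to the 17 S phase genes, among them MBD2 and TET3.

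BMN against Control showed no gene lower among the 8, against 6.97% of all symbols, and 1 higher, against 13.0% of all. That gene was UHRF2, at a log2 fold change of 0.62, and it no longer passed 1.5-fold under median-ratio scaling or relative to the S phase genes. DNMT1 was at −0.04, UHRF1 at 0.26, HELLS at 0.26, MBD2 at 0.08 and TET2 at 0.47. The median of the 8 was 0.26 and that of all symbols 0.09. The level of DNMT1 in Control was 1.03 times that in BMN.

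In BMN/PAZA low dose against Control, DNMT1 and MBD2 were lower, 2 of 8, where 14.2% of all symbols were lower and 11.2% higher. DNMT1 was at 0.509 of Control (log2 −0.97) and MBD2 at −0.66. MBD2 no longer passed 1.5-fold with median-ratio scaling, at −0.57, or relative to the S phase genes, which left 1 of 8. The median of the 8 was −0.41, against −0.08 over all symbols, and 7 of the 8 lay below that all-symbol median, UHRF2 at 0.39 being the exception. In BMN/PAZA high dose against Control, DNMT1 and TET2 were lower, again 2 of 8, where 20.2% of all symbols were lower and 8.44% higher. DNMT1 was at 0.340 of Control (log2 −1.54) and TET2 was at −0.67. TET2 no longer passed 1.5-fold with median-ratio scaling, at −0.47, without the 50 most abundant symbols or relative to the S phase genes, which left 1 of 8. Only 1.31% of all symbols had a lower fold change than DNMT1 there, against 4.30% at the low dose and 12.1% in PAZA. The median of the 8 was −0.38, against −0.22 over all symbols, and UHRF1 was at −0.11, a sign that changed with the scaling.

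**Figure D3:**
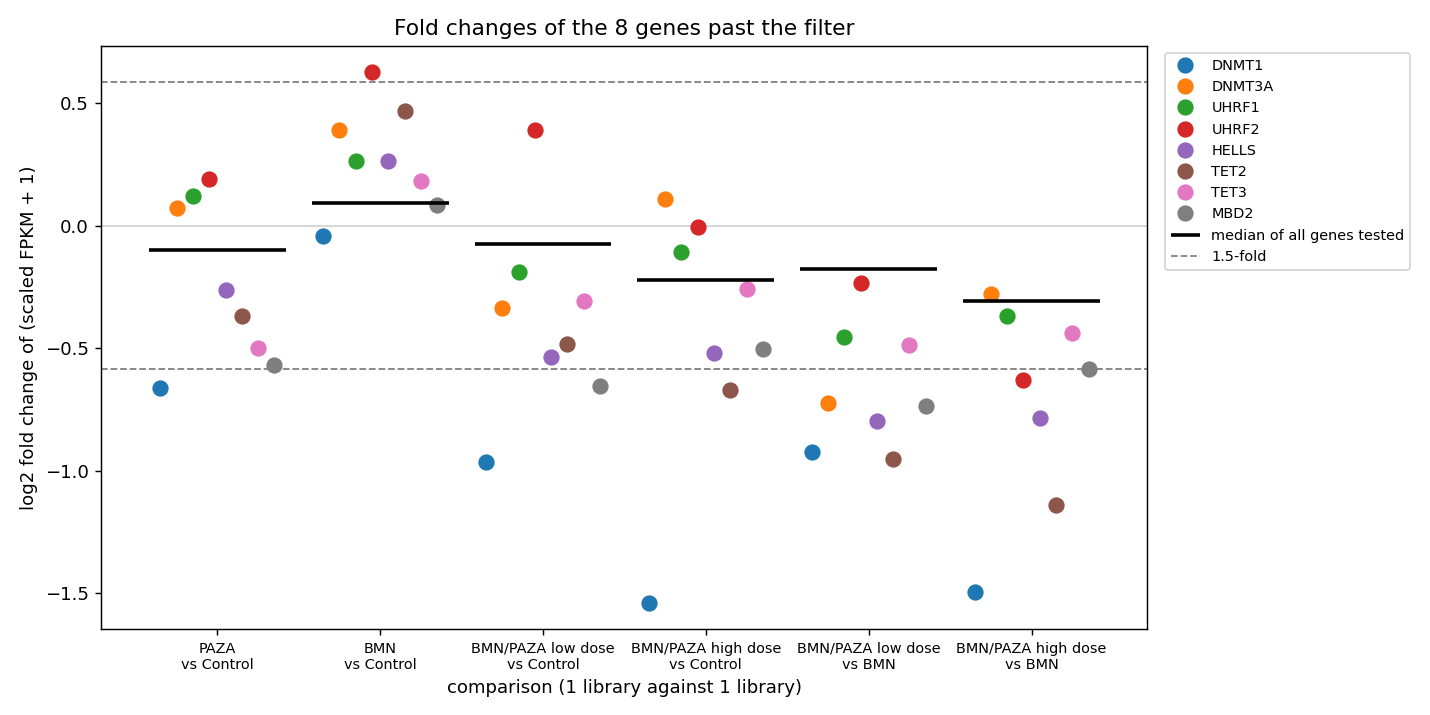
Log2 fold changes of the 8 genes past the filter (points) in 6 comparisons of 1 library with 1 library, with the median of all 11214 symbols as a bar and 1.5-fold as dashed lines. DNMT1 lies at −0.66, −0.97 and −1.54 in the 3 comparisons of a library with PAZA against Control and at −0.04 for BMN, while UHRF1 lies between −0.45 and 0.26 in all 6.

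The combinations were also set against BMN. By the text of the study, BMN alone had the BMN dosage of the low dose, which differs from it in the azacytidine carrier. The high dose differs from it in the carrier and also in the BMN dosage. In BMN/PAZA low dose, DNMT1, DNMT3A, HELLS, TET2 and MBD2 were lower, 5 of 8, where 20.3% of all symbols were lower and 9.37% higher. TET2 was at −0.95, DNMT1 at −0.92, HELLS at −0.80, MBD2 at −0.74 and DNMT3A at −0.72, and the median of the 8 was −0.73 against −0.18 over all symbols. In BMN/PAZA high dose, DNMT1, UHRF2, HELLS, TET2 and MBD2 were lower, also 5 of 8, where 26.4% of all symbols were lower and 6.13% higher. DNMT1 was at −1.50, TET2 at −1.14, HELLS at −0.78 and UHRF2 at −0.63, with MBD2 at −0.59 on the threshold itself. The median was −0.61 against −0.31 over all symbols. These counts leaned on the scaling: with median-ratio scaling 3 genes were lower at the low dose and 2 at the high dose, relative to the 17 S phase genes 1 and 2, and relative to all 20 of them 0 and 2. BMN was itself the library with the highest level for 7 of these 8 genes, DNMT1 excepted, and it held the highest epidermal and fibroblast marker sums, whose part in these differences was not tested.

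BMN/PAZA low dose against PAZA and the 2 combinations against each other had none of the 8 genes past 1.5-fold. In the former, 9.12% of all symbols were higher and 8.13% lower, DNMT1 was at −0.30, and the median of the 8 was −0.19 against 0.03 over all symbols. In the low against the high dose, 12.5% of all symbols were higher and 6.38% lower, and the median of the 8 was −0.03 against 0.13. DNMT1 was at 78.8 in the low and 52.7 in the high dose, a log2 fold change of 0.57 that fell just short of the limit. The next gene was UHRF2 at 0.40, and DNMT3A was at the other end with −0.44.

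Control was shared by 4 of these comparisons and BMN by 3, so the libraries were also ordered directly, a view chosen after the values were seen. Of the 8 genes, 5 (DNMT1, MBD2, TET2, TET3 and HELLS) were lower in each of the 3 libraries with PAZA than in both without, and DNMT3A, UHRF1 and UHRF2 overlapped. Over all symbols 30.8% lay below in this way and 7.83% above. The lowest library without PAZA exceeded the highest with it by 1.54-fold for DNMT1, 1.42-fold for MBD2, 1.34-fold for TET2, 1.24-fold for TET3 and 1.20-fold for HELLS. A gap at least as wide as that of DNMT1 was present for 282 of the 11214 symbols. The summed neutrophil markers, at 122 to 233 with PAZA and 64.6 and 72.8 without, had the opposite order of these groups, shared by S100A8, S100A9 and RETNLG and not by CSF3R or CXCR2, and their part in the order of the 5 genes was not tested. The same 5 genes lay below under median-ratio scaling, where the share of all symbols was 17.7%, and relative to the 17 S phase genes, where it was also 17.7%. Relative to all 20 S phase genes 4 of them did, without TET3, where that share was 12.4%. All 5 epidermal markers past the filter lay below in the same libraries, and the part of that tissue in the order of the 5 genes was not tested.

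Partners of these enzymes were described from lists of genes with known roles. MBD2 acts with NuRD, the complex of a CHD remodeler, histone deacetylases and MTA, GATAD2 and RBBP subunits. The deacetylases HDAC1 and HDAC2 stood on the list of maintenance partners and are not among the 9 NuRD genes counted here. Of these 9, 5 were lower in PAZA, 0 in BMN, 5 in BMN/PAZA low dose and 3 in BMN/PAZA high dose against Control, where 15.6%, 6.97%, 14.2% and 20.2% of all symbols were, and none of the 9 was higher. With median-ratio scaling 4, 0, 3 and 3 were lower. Medians were −0.62, 0.10, −0.63 and −0.47, beside −0.10, 0.09, −0.08 and −0.22 over all symbols. The remodeler CHD4 had 198 in Control, 213 in BMN, 102 in PAZA, 105 in BMN/PAZA low dose and 91.5 in BMN/PAZA high dose. Its relative CHD3 had 43.6, 56.8, 14.5, 22.4 and 22.9 in that order, the lowest mean fold change of the list. Both were lower than Control by at least 1.5-fold in each library with PAZA. The histone chaperone RBBP4, with the highest mean fold change of the list, had 54.3 in Control, 47.9 in BMN, 53.4 in PAZA, 57.4 in BMN/PAZA low dose and 44.5 in BMN/PAZA high dose, with overlapping groups. With median-ratio scaling the medians of the list were −0.52, −0.02, −0.54 and −0.23 for PAZA, BMN, BMN/PAZA low dose and BMN/PAZA high dose, so the sign for BMN depended on the scaling. In all, 8 of the 9 genes were lower in every library with PAZA than in both without, RBBP4 excepted, against 30.8% of all symbols. With median-ratio scaling 7 of the 9 were, RBBP7 no longer among them, against 17.7% of all symbols. HDAC1, at 24.1 in Control and 27.9 to 45.3 in the treated libraries, did not share that order. HDAC2 had 123 in Control, 136 in BMN, 106 in PAZA, 96.0 in BMN/PAZA low dose and 92.1 in BMN/PAZA high dose, so it did.

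**Figure D4:**
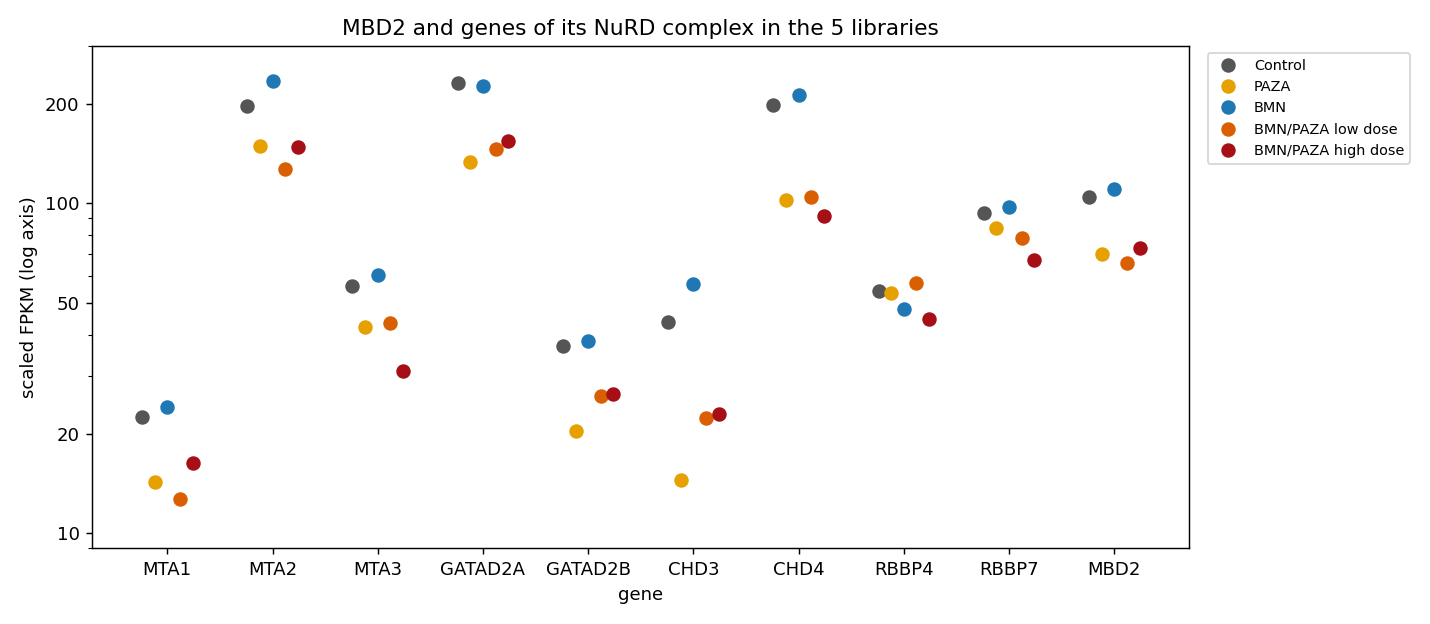
Scaled FPKM of 9 NuRD genes and of MBD2 on a log axis, with 1 point per library. For 8 of the 9 NuRD genes and for MBD2 the 3 libraries with PAZA lie below Control and BMN, while the points of RBBP4 overlap between 44.5 and 57.4.

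Some genes of other methyl-CG binding proteins and their relatives were lower as well. Of 7 such genes past the filter (DNMT3L was below it), 3 were lower in PAZA, 1 in BMN, 2 in BMN/PAZA low dose and 3 in BMN/PAZA high dose against Control, where 15.6%, 6.97%, 14.2% and 20.2% of all symbols were, and none was higher. In each library with PAZA, 6 of the 7 lay below both without, against 30.8% of all symbols. With median-ratio scaling 2, 1, 2 and 2 were lower than Control, and 5 of the 7 lay below, MBD3 no longer among them, against 17.7% of all symbols. MBD3, the NuRD relative of MBD2 that in mammals does not prefer methylated DNA, had 21.8 in Control, 12.5 in BMN, 8.90 in PAZA, 11.4 in BMN/PAZA low dose and 9.14 in BMN/PAZA high dose, so it was lower by at least 1.5-fold in all 4 treated libraries, BMN included. All 4 comparisons share the Control library. MBD4, a glycosylase that repairs deaminated CG sites, had 6.14 in Control, 7.68 in BMN, 5.67 in PAZA, 5.33 in BMN/PAZA low dose and 5.16 in BMN/PAZA high dose, none of them past 1.5-fold.

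Partners of maintenance methylation were mostly within 1.5-fold of Control. Of 9 genes, 0 were past it in PAZA and in BMN/PAZA high dose, 2 were higher in BMN, where 13.0% of all symbols were, and 2 lower in BMN/PAZA low dose, where 14.2% were. One of each pair, PCNA in BMN and LIG1 in the low dose, had values that differed between tables of the same library. Over all symbols 10.6% were higher and 15.6% lower in PAZA, and 8.44% and 20.2% in the high dose. With median-ratio scaling 1 gene was higher in PAZA and 1 lower in the low dose. Relative to the 17 S phase genes, 2 were higher and 0 lower in the low dose. The deacetylase HDAC1 had 24.1 in Control, 35.6 in PAZA, 45.3 in BMN, 34.4 in BMN/PAZA low dose and 27.9 in BMN/PAZA high dose. ZBTB24, an activator of CDCA7, had 6.26 in Control and 3.82 to 4.78 in the treated libraries. These 2 genes had the highest and lowest mean fold change of the list.

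Demethylation partners went both ways. GADD45A, a stress gene linked to repair-based demethylation, had 46.4 in Control, 28.5 in BMN, 26.2 in PAZA, 26.5 in BMN/PAZA low dose and 23.8 in BMN/PAZA high dose. Its family member GADD45G had 2.25 in Control, 4.82 in BMN, 5.99 in PAZA, 8.65 in BMN/PAZA low dose and 4.5 in BMN/PAZA high dose. GADD45A was lower and GADD45G higher by at least 1.5-fold in all 4 treated libraries. The 4 comparisons share the single Control library, so an unusual value there would move all of them. The share of all symbols past 1.5-fold in all 4 was not computed. Of the 8 genes past the filter, 2 were higher and 2 lower in PAZA, 1 and 1 in BMN, 2 and 1 in BMN/PAZA low dose, and 1 and 2 in BMN/PAZA high dose. Over all symbols 10.6% were higher and 15.6% lower in PAZA, 13.0% and 6.97% in BMN, 11.2% and 14.2% in the low dose, and 8.44% and 20.2% in the high dose, so these counts are near the background.

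Genes that supply methyl groups stayed mostly within 1.5-fold of Control. Of 7, 1 passed 1.5-fold in 1 comparison with Control, in the low dose, where 14.2% of all symbols were lower. None passed in PAZA, BMN or the high dose. Over all symbols 10.6% were higher and 15.6% lower in PAZA, 13.0% and 6.97% in BMN, and 8.44% and 20.2% in the high dose. With median-ratio scaling none was lower, and 1 was higher in the low and 1 in the high dose. The gene that passed was the methionine synthase MTR, at 6.85 in Control, 6.91 in PAZA, 6.98 in BMN, 4.16 in BMN/PAZA low dose and 7.03 in BMN/PAZA high dose. MAT2B, a subunit of the synthase of the methyl donor S-adenosylmethionine, had 20.9 in Control and 23.7 to 30.3 in the treated libraries. Of 9 histone methylation and silencing genes, 1 was lower in PAZA, 0 in BMN, 2 in BMN/PAZA low dose and 1 in BMN/PAZA high dose, where 15.6%, 6.97%, 14.2% and 20.2% of all symbols were, and 1 was higher in BMN, against 13.0%. These counts are near the background. The H3K9 methyltransferase SETDB1 had 26.0 in Control, 26.0 in BMN, 14.1 in PAZA, 15.3 in BMN/PAZA low dose and 17 in BMN/PAZA high dose, whereas SUV39H1, which marks the same residue in heterochromatin, had 3.19, 5.92, 3.93, 4.71 and 3.74 in that order. SETDB1 was thus lower in each library with PAZA than in both without, as DNMT1 was. Among the libraries with PAZA it was highest at the high dose, where DNMT1 was lowest. SUV39H1 was above Control in all 4 treated libraries.

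Against Control, the medians of 20 S phase genes were 0.08 in PAZA, 0.21 in BMN, −0.10 in BMN/PAZA low dose and −0.18 in BMN/PAZA high dose, beside −0.10, 0.09, −0.08 and −0.22 over all symbols. Medians of 12 mitosis genes were 0.28, 0.41, 0.17 and −0.10 in that order. Against BMN, 7 of the 20 S phase genes were lower at the low dose and 6 at the high dose, where 20.3% and 26.4% of all symbols were, with medians of −0.34 and −0.43 beside −0.18 and −0.31. Without TYMS, POLA1 and PRIM1 the counts were 4 and 3 of 17, near the background, and the medians −0.23 and −0.30. DNMT1, at −0.92 and −1.50, was below these medians. In each library with PAZA, 4 of the 20 S phase genes and 3 of the 12 mitosis genes lay below both libraries without, where 30.8% of all symbols did. So did 4 of 9 maintenance partners, 2 of 8 demethylation partners, 1 of 7 methyl donor genes and 5 of 9 histone silencing genes.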

How the data were processed

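RNA-seq values of 5 libraries, 1 per group, came from 5 deposited tables of 2 groups each. The authors' processing notes name HISAT2, StringTie and the mouse build GRCm38, with versions not given in the sources used here. No header names the unit of the deposited values, which were taken to be FPKM. The depth is unknown, and an FPKM depends on library composition.

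Control and PAZA were taken from their shared table, BMN and BMN/PAZA high dose from theirs, and BMN/PAZA low dose from its table with the high dose. The row with the highest mean was used per symbol, and each column was scaled to a sum of 1e+06 over 13979 shared symbols. The low dose column stood at 3.26 and 3.41 times its values in the tables with BMN and PAZA, which this scaling removes. No value of the genes followed was more than 0.5% from such a constant, and 435 symbols were. The pseudocount was 1, the minimum mean 1 and the fold limit 1.5. There was no test, since each group has 1 library.

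The genes followed and the lists were chosen with earlier results of these data known. Named in the text are the genes followed, in each partner list the genes with the highest and lowest mean log2 fold change of the 4 treated libraries against Control, list genes past 1.5-fold one way in all 4, and for DNMT1, UHRF1 and TET2 the 4 symbols nearest in profile. CHD4, HDAC2, RBBP7, PCNA, LIG1, VIM, TNNC2, PECAM1 and the neutrophil and S phase genes singled out in the text were named after their values were seen. Coordinates are from GENCODE M21, and start regions from RefSeq. The scaling and the call of higher or lower were tested on simulated data, only for abundant genes with changes well beyond the fold limit. Ratios, orders of libraries, lists and start regions were not tested in this way. Alternatives were another pseudocount, no filter, another fold limit, other scalings, other tables of the same library and summed rows. The 2 settings relative to S phase genes and that without the 435 symbols were chosen after seeing the data. Python 3.11.15, numpy 2.4.6, pandas 2.3.3 and matplotlib 3.10.9 were used.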

Additional observations from a re-analysis of the deposited data

How the results depend on the processing

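No paired analysis was possible because each group has 1 library. No direction of a called value reversed. Both settings with S phase genes were added once the data had been seen. Of 87 recomputed medians of the 8 genes, 17 moved or lost their genes' calls. Relative to 17 S phase genes the median was −0.40 in the low dose against BMN, 0.072 in the low dose against PAZA and −0.27 in the high dose against BMN, and stayed above 0 in BMN against Control, at 0.08. Relative to all 20, with the 3 that differ between tables of 1 library, it was −0.13 in BMN against Control, −0.29 in the low dose against BMN, 0.032 in the low dose against PAZA and −0.10 in the high dose against BMN. With median-ratio scaling it was −0.16 in the high dose against Control, −0.54 in the low and −0.28 in the high dose against BMN, and the median of all symbols was then near 0. Without the 50 most abundant symbols it was −0.16 in the high dose against Control and −0.32 against BMN. A fold limit of 2 cannot move a median, here −0.73 for the low and −0.61 for the high dose against BMN, but calls were lost. With 1 table as deposited it was −0.55 for the low and −0.42 for the high dose against BMN, and 1.60 for the low against the high dose, where the scale of the low dose column puts all 8 genes higher. DNMT1 ranged from −0.99 to −0.80 in the low and from −1.56 to −1.30 in the high dose against Control over all alternatives. The 30 recomputed ratios between genes moved by less than the limit of 0.2 on the log2 scale. They came from other tables of the same library or from summed rows. The genes followed differed between tables by a constant only, so this outcome was fixed and is no check. The depth is unknown, and DNMT3B and TET1 were under 1 in every library that lists them.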

Other observations

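The symbols nearest to DNMT1, UHRF1 and TET2 in profile were listed by the Euclidean distance between centred log2(value + 1) values over 5 libraries, which is a description from 5 points that share their scaling. Nearest to DNMT1 were SRD5A1 (0.198), AKAP7 (0.205), MYO1F (0.206) and KLRK1 (0.232). SRD5A1 was low, at 0.622 to 3.92, where the pseudocount of 1 narrows its differences between libraries. AKAP7 had 116 in Control, 94.8 in BMN, 68.9 in PAZA, 51.1 in BMN/PAZA low dose and 37.9 in BMN/PAZA high dose, the same order of libraries as DNMT1. Among the 8 genes, the one nearest to DNMT1 was TET2, at 0.635 and place 342 of the ranking, and UHRF1 stood at 1.09 and place 4050. Nearest to UHRF1 were FRG1 (0.0578), STAM2 (0.0678), PSTPIP1 (0.0725) and TTL (0.0746), and nearest to TET2 were GHR (0.119), CENPJ (0.127), MAP3K4 (0.138) and FBXO11 (0.143).

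Germline genes that methylation keeps silent in body tissues were mostly not listed: of 14, 5 had a row in all 3 tables and 3 passed the filter. Of these 3, 2 were lower in PAZA, 1 was lower in BMN and 1 was higher in BMN/PAZA low dose, against Control, where 15.6%, 6.97% and 11.2% of all symbols were. Their medians were −0.69, −0.58, 0.52 and −0.41 in PAZA, BMN, BMN/PAZA low dose and BMN/PAZA high dose, beside −0.10, 0.09, −0.08 and −0.22 over all symbols. The low dose had 2 of the 3 higher than BMN (median 1.0), 2 higher than PAZA (0.99) and 3 higher than the high dose (0.69), where 9.37%, 9.12% and 12.5% of all symbols were higher.

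Among the cell type markers, ACTA1, MYLPF, CDH5 and CFD were higher than Control by at least 1.5-fold, on the log2(value + 1) scale, in all 4 treated libraries. These 4 comparisons share the Control library, and other markers of the same lists went the other way. In BMN/PAZA low dose TNNC2 was listed at 0, against 4.33 in Control, and the muscle sum was 11.2 against 12.2. PECAM1 was 15.2 in the low and 15.4 in the high dose, against 18.7 in Control. The muscle genes ACTA1 and MYLPF had 0.199 and 2.12 in Control, with 1.69 to 25.4 and 4.40 to 31.8 in the treated libraries. The endothelial cadherin CDH5 had 5.67 in Control and 9.74 to 14.1 in the others, and the adipocyte gene CFD had 1.35 and 3.6 to 18.7. KRT18 was listed at 0 in Control and was at 0.604 to 3.49 in the others.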
